A study of Mus musculus with 12 samples.

Results

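The control retina at postnatal day 30 (P30) was described from 3 libraries, all those titled CC_P30 with the genotype control, out of the 12 libraries of the series. The series measured poly(A) RNA of the mouse retina, and its other 9 libraries came from retinas 2, 4 and 8 days after induced loss of the homeobox gene Otx2 in PRs (photoreceptors). That loss was driven by a tamoxifen-dependent Cre under the Crx promoter in mice that carried floxed Otx2 alleles on both chromosomes, on a 129/SV background. The controls carried the source name Control_Crx and no time after induction, and the sources used here do not state whether these 3 mice carried the Cre. The study's methods set control mice apart from those given tamoxifen and place P30 at the injection, whereas the treatment text of the labels is the same for every sample. Each library was made from the whole retina of 1 eye, a preparation that included the RPE (retinal pigment epithelium). No comparison was made with the Otx2-deficient retinas, so that the values below are levels, shares or spreads of the 3 control libraries, apart from 1 sentence on the spread within the other triplets, and no test was run.

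The libraries held 60145034, 47255929 and 35242774 counts on genes in libraries 1, 2 and 3. Levels between libraries are given as CPM (the usual abbreviation for counts scaled to a common library size, here by TMM, the trimmed mean of M-values) and levels between genes as TPM (counts divided by exon length and scaled to the same total in each library). Library 3 stood apart by its lens genes, which held 16.5% of its TPM against 4.12% in library 1 and 0.303% in library 2. Since TPM sums to a fixed total, the sums of rod, shared PR, cone, RGC, Müller glia and pigment cell genes are given with and without lens genes in that total. So are those of amacrine, microglial, pericyte, ciliary body and glycolysis genes. Other sums keep lens genes in the total, which lowers them most in library 3. In bulk RNA, fewer cells of a type and less RNA per cell cannot be told apart, and no list sum below is a share of cells. All 3 libraries carried Xist, the RNA of the inactive X chromosome, at 1887, 2283 and 2186 CPM, whereas Ddx3y, Eif2s3y, Kdm5d and Uty of the Y chromosome had at most 5 counts in any library.

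In the retina, rods and cones convert light into a change in membrane current. Light activates an opsin, the opsin activates the G protein transducin, transducin releases the inhibition of the phosphodiesterase PDE6, and the fall in cyclic GMP closes cyclic nucleotide-gated (CNG) channels. Bipolar cells carry the signal to retinal ganglion cells (RGCs), horizontal and amacrine cells shape it laterally, and Müller glia span the tissue and take up glutamate. OTX2 and its relative CRX are homeodomain factors that bind to sequences around TAATCC in PR genes. The RPE and the melanocytes of the choroid make pigment, and the lens is filled with crystallins, proteins made in elongated fibre cells.

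Promoter sequences are shown for genes of the 3 groups that the results turn on, namely PRs, the lens and pigment cells. Each run holds the 150 bases before the RefSeq start on build GRCm38.p6, read 5′ to 3′ on the strand of the gene, and none of it reaches into the annotated transcript. Capitals mark TAATCC or its reverse complement in Sag, Rbp3, Aipl1 and Cngb1, TGCTGA (the core of MAF recognition elements) or its reverse complement in Cryba1 and Crybb3, and CATGTG (the core of the M-box bound by MITF) or its reverse complement in Tyr and Tspan10.
Sag (chr1:87803530-87803679, plus strand): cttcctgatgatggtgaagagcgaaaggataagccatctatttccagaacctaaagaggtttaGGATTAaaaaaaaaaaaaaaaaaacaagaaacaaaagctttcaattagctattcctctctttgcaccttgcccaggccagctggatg
Rbp3 (chr14:33953853-33954002, plus strand): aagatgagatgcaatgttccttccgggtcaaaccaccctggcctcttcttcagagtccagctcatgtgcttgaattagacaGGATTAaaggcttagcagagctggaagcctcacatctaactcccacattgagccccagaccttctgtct
Aipl1 (chr11:72037510-72037659, minus strand): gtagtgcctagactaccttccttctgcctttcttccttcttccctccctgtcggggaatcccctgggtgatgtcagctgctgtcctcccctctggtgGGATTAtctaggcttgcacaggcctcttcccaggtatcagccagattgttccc
Cngb1 (chr8:95306586-95306735, minus strand): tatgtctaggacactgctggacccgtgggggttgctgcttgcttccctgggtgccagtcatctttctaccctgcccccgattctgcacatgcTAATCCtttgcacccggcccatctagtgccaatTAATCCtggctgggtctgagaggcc
Cryba1 (chr11:77725294-77725443, minus strand): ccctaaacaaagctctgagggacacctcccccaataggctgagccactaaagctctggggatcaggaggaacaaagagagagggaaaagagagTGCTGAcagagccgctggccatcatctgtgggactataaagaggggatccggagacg
Crybb3 (chr5:113081585-113081734, minus strand): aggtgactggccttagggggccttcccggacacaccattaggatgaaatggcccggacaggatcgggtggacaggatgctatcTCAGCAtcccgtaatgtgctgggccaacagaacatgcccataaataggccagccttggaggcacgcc
Tyr (chr7:87493513-87493662, minus strand): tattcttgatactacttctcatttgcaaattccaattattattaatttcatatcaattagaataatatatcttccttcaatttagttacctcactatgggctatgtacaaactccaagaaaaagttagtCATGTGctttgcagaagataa
Tspan10 (chr11:120442481-120442630, plus strand): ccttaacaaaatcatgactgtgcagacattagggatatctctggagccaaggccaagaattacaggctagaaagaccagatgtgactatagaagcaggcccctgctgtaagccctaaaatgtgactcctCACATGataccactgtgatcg

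The nearest match began 87 bases before the start in Sag, 69 bases in Rbp3 and 53 bases in Aipl1, and Cngb1 had 2 matches, at 58 and 25 bases. In Cryba1 and Crybb3 it began 57 and 67 bases before the start, and in Tyr and Tspan10 it began 21 bases before it. Over the 250 bases before the start and on both strands, TAATCC was present in 14 of the 35 PR genes with a promoter in the RefSeq table (40%), against 6.37% of all 27025 promoters, and the share was equal in the RPE list, with 4 of 10. TGCTGA was present in 15 of 26 lens promoters (57.7%) and in 15.8% of all promoters, but also in 4 of 8 RGC and 4 of 9 stromal promoters. CATGTG was present in 6 of 8 pigment cell promoters (75%) and in 12.2% of all promoters, but also in 4 of 10 rod promoters. Both strands of each window were searched, and these are matches of letters only, since binding was not measured. Gnat1 and Pmel had no entry in the table and are not shown.

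Of 54146 genes, 23213 had a count in each library and 14923 reached a mean of 1 CPM. Protein-coding genes held between 97.7% and 98.0% of the counts. Among the most counted genes were Gnat1 (chr9:107674474-107679712), the α subunit of rod transducin, at 1.27% of counts on average, and Cryaa (chr17:31677807-31681733), αA-crystallin of the lens, at 0.868%. They were followed by Sag (rod arrestin), mt-Cytb, Prph2 (a tetraspanin of the outer segment rim), Rbp3 (the retinoid-binding protein of the matrix around PRs), Gnb1 (the β subunit of rod transducin), mt-Co1 and mt-Nd1. The 10 most counted genes held 9.92%, 9.13% and 11.2% of the counts of libraries 1, 2 and 3.

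Per length, the mitochondrial genes mt-Cytb with 23103 ± 267 TPM (SD, n = 3) and mt-Nd1 with 18084 ± 1153 TPM were among the highest. Gnat1 followed with 16591 ± 1076 TPM. Cryaa ranked next with a mean of 15797 TPM, but its values of 13209, 604 and 33580.0 TPM did not describe a common level. The 10 highest also held mt-Co1, Prph2, mt-Nd2, Cryba1 and Crygs, so that 3 of the 10 were lens crystallins and 4 were encoded in the mitochondrion. Of the 13 protein genes of the mitochondrion, 6 had no count in any library. Reads without a unique position were not counted, so that no count here does not mean absent RNA. The RNA of library 3 was the most concentrated, as 359 genes held 50% of its TPM against 703 in library 1 and 842 in library 2.

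**Figure D1:**
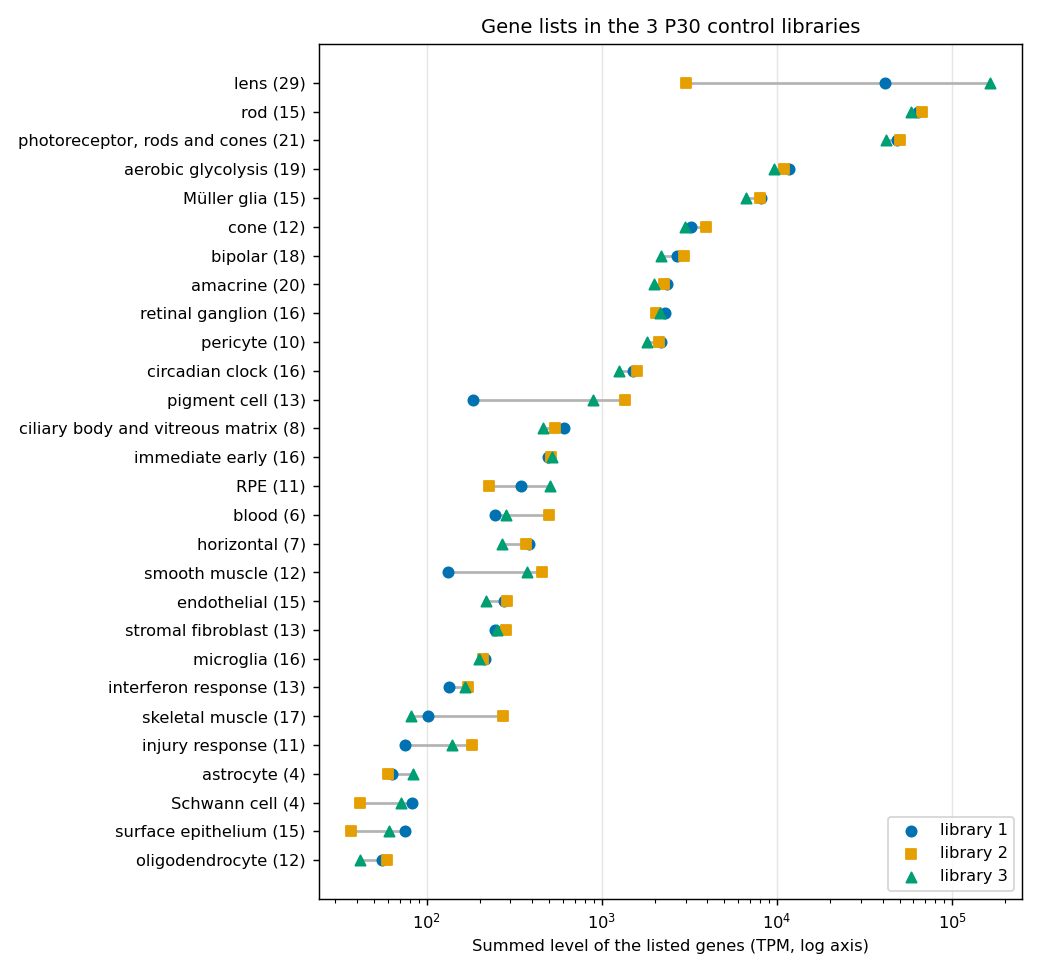
Summed level in TPM (log axis) of each gene list, with the number of listed genes found in parentheses and 1 symbol per library. The rod list lies at 57931 to 67478 TPM in all 3 libraries, whereas the lens list runs from 3029.8 to 165210.0 TPM.

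Rod genes made up the largest retinal share. The 15 rod genes summed to 64127, 67478 and 57931 TPM, and with lens genes left out of the total to 66884, 67683 and 69396 TPM. The highest library thus exceeded the lowest 1.16-fold with lens genes and 1.04-fold without them. None of the 15 rod genes differed 2-fold between libraries, against 5.02% of all genes with a mean of at least 1 CPM. That share was 1.32% between 100 and 1000 CPM, and every rod gene had a mean above 100 CPM. For 15 genes, none is near either share. Among the signalling genes, Gnat1 stood at 12768, 12076 and 13166 CPM, with library 3 highest and a range of 1.09-fold. Gnb1 had 5112 ± 270.2 TPM and Pde6g, the inhibitory subunit of PDE6, had 4979 ± 624 TPM.

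The catalytic subunits Pde6a and Pde6b had 2205 ± 183 and 2228 ± 366 TPM, so that their levels did not differ beyond their spread. The order of both was not the same in each library, as Pde6a over Pde6b was 0.874 and 0.969 in libraries 1 and 2 and 1.17 in library 3. The channel subunits Cnga1 and Cngb1 had 605 ± 69.3 and 428 ± 59.2 TPM, and Cnga1 was the higher in every library, by 1.61-, 1.28- and 1.37-fold. Among the transcription factors that set rod identity, Nrl had 1435 ± 204 TPM and Nr2e3, its target and partner, 695 ± 172 TPM. The rod genes with the largest spread were Samd7, a repressor of non-rod genes, with 125, 144 and 184 CPM, Nr2e3 with 640.4, 632 and 475 CPM, and Reep6, needed for membrane traffic in rods, with 643, 677 and 812 CPM. Samd7 and Reep6 were highest in library 3, and Nr2e3 was lowest there.

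Genes shared by rods and cones came next. The 21 genes summed to 48641, 50315 and 42114 TPM, or 50732, 50468 and 50449 TPM without lens genes in the total. The structural pair of the disc rim, Prph2 and Rom1, had 8231 ± 879 and 6894 ± 853 TPM, and their ratio stayed between 1.18 and 1.22. Among the calcium sensors, recoverin (Rcvrn) had 4395 ± 609 TPM and Guca1a, an activator of guanylate cyclase, had 3179 ± 675 TPM. Rbp3 had 4328 ± 579.5 TPM. None of the 21 genes differed 2-fold. The largest spreads were those of Sag with 9261, 6329 and 8600.2 CPM, Gucy2f, a guanylate cyclase, with 180.2, 264 and 262 CPM, and Rbp3 with 4879, 5861 and 6635 CPM. Sag was lowest in library 2, whereas Gucy2f and Rbp3 were lowest in library 1. Crx itself had 1225, 1209 and 1138 CPM, and Otx2 (chr14:48657677-48673819) had 305, 332 and 314 CPM, within 1.09-fold. Per length, Crx with 1503 ± 205 TPM exceeded Otx2 with a mean of 299.7 TPM.

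Cone genes were far lower. The 12 cone genes summed to 3205, 3921 and 2973 TPM, and to 3343, 3933 and 3561 TPM without lens genes in the total. Opn1sw, the short-wavelength opsin, had 1047 ± 182 TPM and was the most abundant, before Gnb3, the cone transducin β subunit, with 646 ± 132 TPM, and Arr3, cone arrestin, with 373 ± 44.8 TPM. Opn1mw, the middle-wavelength opsin, had 362 ± 25.2 TPM, so that Opn1sw over Opn1mw was 2.55, 3.19 and 2.91 in libraries 1, 2 and 3. Pde6c, the catalytic subunit of cone PDE6, was the only listed cone gene whose libraries differed 2-fold. It had 65.6, 82.0 and 34.8 CPM, with library 3 lowest, a 2.35-fold range. The inhibitory subunit Pde6h, with 114, 146 and 102 CPM, had the same order, whereas the channel genes Cnga3 and Cngb3 had 17.2 and 37.4 CPM in library 3, little above library 2, and were lowest in library 1.

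In TPM, the ratio of a rod gene to its cone counterpart differed between the steps of the cascade. Gnat1 exceeded Gnat2 51.9 ± 6.18-fold (SD, n = 3, ratios of TPM). Gnb1 over Gnb3 was only 8.09 ± 1.32 and Gngt1 over Gngt2 was 7.15 ± 0.676. In every library the ratio of the α subunit exceeded those of the β and γ subunits. The inhibitory PDE6 subunits gave 83.2 ± 16.4 and the catalytic subunits 61.8 ± 28.8, of which the latter rested on Pde6c and ran from 40.6 in library 2 to 94.6 in library 3. The former rested on the exon lengths used. Pde6g had 3132, 2773 and 2794 CPM but 5431, 5240 and 4268 TPM. Pde6h had 114, 146 and 102 CPM but 58.4, 81.5 and 46.2 TPM. The order of the PDE6 ratios was not tested with other lengths. CNG channel α subunits gave 38.7 ± 8.49 and β subunits 14.8 ± 1.33. Gnb1 is expressed in many other neurons as well, so that its ratio is not a rod-specific value. The part of cells other than cones in Gnb3 was not tested, so that its level is not a cone-specific value.

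**Figure D2:**
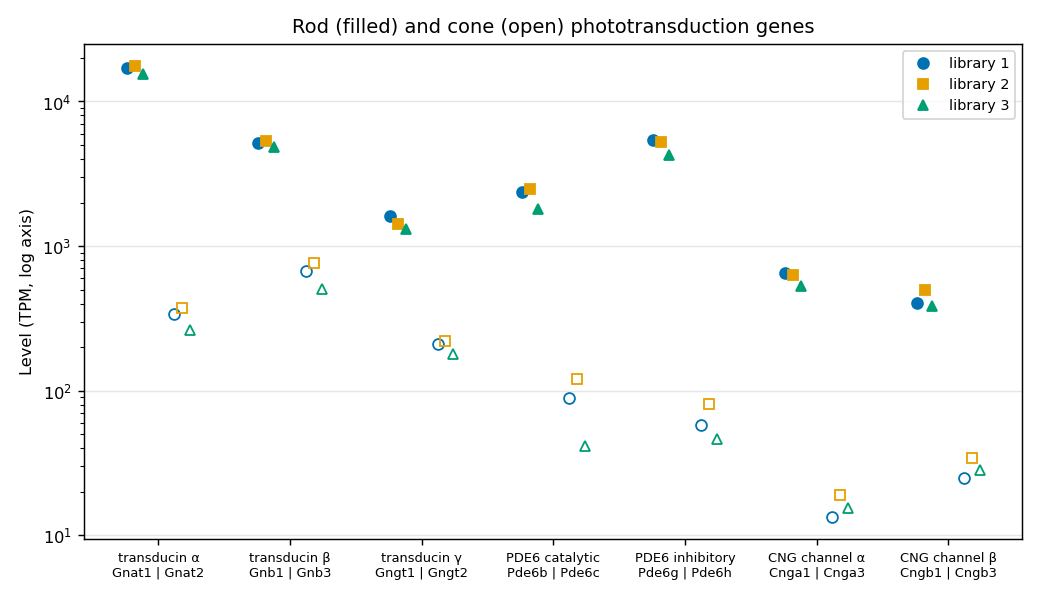
Level in TPM (log axis) of rod genes (filled) and their cone counterparts (open) for the subunits of transducin, PDE6 and the CNG channel, with 1 symbol per library. Rod and cone symbols do not overlap for any subunit, and Pde6c shows the widest spread of the cone genes, with its lowest value in library 3.

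Bipolar cell genes summed to 2688, 2926 and 2163 TPM over 18 genes. Gng13, a G protein γ subunit of ON bipolar cells, had 378 ± 50.2 TPM, Pcp2, a G protein regulator of the same cells, 327 ± 40.9 TPM, and Scgn, secretagogin of cone bipolar cells, 254 ± 64.6 TPM. None of the 18 genes differed 2-fold. The largest spreads were Lrit3, a synaptic protein needed at the dendritic tip, with 27.7, 41.5 and 49.8 CPM, Trpm1, the channel of ON bipolar cells, with 234, 375 and 365 CPM, and Cabp5, a calcium-binding protein, with 195, 143 and 123 CPM. Of the 18 genes, 11 were highest in library 2, against 28.4% of all genes with a mean of at least 1 CPM.

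Amacrine cell genes summed to 2352, 2255 and 1983 TPM over 20 genes, or 2453, 2262 and 2376 TPM without lens genes in the total. None of them differed 2-fold. Calb2, calretinin, led with 937 ± 114 TPM. Gad1 and Gad2, the enzymes of GABA synthesis, had 204 ± 22.3 and 51.7 ± 3.78 TPM, and Slc6a9, the transporter of glycine, had 182 ± 25.9 TPM. Genes of rarer types were low, as Chat and Slc18a3 of cholinergic cells had 10.0 ± 1.26 and 12.4 ± 1.68 TPM and Th of dopaminergic cells had 9.22 ± 0.415 TPM. Chat with 11, 9.86 and 15.2 CPM and Slc18a3 with 6.50, 6.77 and 9.67 CPM were both highest in library 3. Horizontal cell genes summed to 381, 369 and 269 TPM, mostly from Sept4 with 226 ± 51.0 TPM and Calb1, calbindin, with 89.2 ± 10.2 TPM, neither of which is confined to these cells. The more restricted Lhx1 had 5.90 ± 1.13 TPM, and Onecut1 stayed below 1 CPM in every library.

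RGC genes were lowest in library 2. The 16 genes summed to 2293, 2022 and 2156 TPM, or 2392, 2028 and 2583 TPM without lens genes in the total. All 16 had their lowest CPM in library 2, and 13 had their highest in library 3, whereas 28.6% of all genes were lowest in library 2 and 32.9% highest in library 3. The range was small, with a median of 1.30-fold, and none reached 2-fold. Nefl, the light neurofilament chain, had 566 ± 49.6 TPM and Sncg, γ-synuclein, 557 ± 65.3 TPM. Nefm, the medium chain, had 169.9, 136 and 208 CPM, Pou4f1, a POU factor of RGCs, had 30.0, 21.3 and 32.1 CPM, and Isl2 had 2.96, 2.52 and 3.74 CPM. Library 2 was thus the lowest for axonal proteins and for transcription factors, with ranges of 1.53-fold for Nefm, 1.5-fold for Pou4f1 and 1.48-fold for Isl2. Opn4, melanopsin, varied least with 5.87, 5.44 and 6.14 CPM.

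Müller glia contributed the largest non-neuronal share of the retina proper. The 15 genes summed to 8070.5, 7975 and 6601 TPM, or 8418, 7999 and 7907 TPM without lens genes in the total. Glul, glutamine synthetase, had 2941 ± 529 TPM, Dkk3 1129 ± 80.6 TPM, Apoe 958 ± 100.1 TPM and Clu, clusterin, 812 ± 131 TPM. Vim, the intermediate filament vimentin, which lens cells also express, was the only listed gene that differed 2-fold, with 279.8, 141 and 337 CPM, the same order of libraries as the lens genes. The part of lens RNA in this was not tested. The next largest spreads were Hes1, a Notch target, with 21.5, 16.5 and 11 CPM, and Sox9, a glial transcription factor, with 19.9, 16.4 and 11.9 CPM, both lowest in library 3.

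Astrocytes and oligodendrocytes were scarcely represented. Gfap, the filament of astrocytes and of reactive Müller glia, had 21.1, 20.4 and 45.0 CPM and was 2.21-fold higher in library 3 than in library 2. Pax2, a factor of astrocytes at the optic nerve head, stayed below 1 CPM. Mbp and Cnp had 14.8 ± 2.22 and 25.7 ± 6.24 TPM, but the defining genes of the oligodendrocyte lineage were at or near 0, as Olig1 had no count and Mog and Olig2 had 1 count each over the 3 libraries. The upper limit that 3 counts set was between 0.0494 and 0.0890 CPM per library, which covers counting error only.

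Of the genes with a mean of at least 1 CPM, 1 of 13 microglial genes differed 2-fold (7.69%). So did 1 of 23 endothelial and pericyte genes (4.35%), and both shares were near the 5.02% of all genes. The median ranges of microglial, endothelial and pericyte genes were 1.24-, 1.26- and 1.37-fold against 1.20-fold over all genes. The 16 microglial genes summed to 214, 210.1 and 198 TPM, or 223, 211 and 237 TPM without lens genes in the total. Among them were Ctss with 42.6 ± 2.75 TPM and C1qb with 20.2 ± 1.08 TPM, of which the former is a lysosomal enzyme found in many cells. The more restricted Cx3cr1, P2ry12 and Tmem119 had 4.29 ± 0.992, 6.54 ± 1.44 and 4.00 ± 0.354 TPM. Sall1 was the only one of the 13 genes above 1 CPM that differed 2-fold, with 3.24, 1.51 and 5.25 CPM. Endothelial genes summed to 276, 287 and 218 TPM, and only Vwf, von Willebrand factor, reached 2-fold, with 4.33, 3.52 and 7.06 CPM. Kdr, a VEGF receptor that Müller glia and horizontal cells also express, supplied 101 ± 20.4 TPM of this sum, whereas Pecam1 and Cdh5 had 4.39 ± 0.0526 and 3.24 ± 0.594 TPM. The pericyte sum was 2169.7, 2108 and 1819 TPM, or 2263, 2114 and 2179.5 TPM without lens genes in the total. It came mostly from Vtn, vitronectin, with 1956 ± 180.4 TPM, whereas Pdgfrb, a defining gene of pericytes, had 13.3 ± 1.23 TPM. The part of other cells in Vtn was not tested, so that this sum is no level of pericyte RNA.

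In all, 5 of 162 listed genes of retinal neurons, glia, microglia and vessels differed 2-fold (3.09%), namely Pde6c, Vim, Gfap, Sall1 and Vwf, whereas 75 of 105 listed genes of adjacent tissues did (71.4%). The same share over all genes was 5.02%, but it fell from 11.9% between 1 and 10 CPM to 1.32% between 100 and 1000 CPM. The 3.09% was not compared at matched levels.

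The lens list varied most. Its 29 genes summed to 41222, 3029.8 and 165210.0 TPM, and all 27 genes with a mean of at least 1 CPM differed 2-fold, each of them highest in library 3 and lowest in library 2, against 32.9% and 28.6% of all genes. Cryaa had 6825, 286 and 19694 CPM and Cryba1, a β-crystallin, had 2113, 99.9 and 8199.6 CPM. Mip, the water channel of lens fibres, had 292, 2.21 and 918 CPM, a 415-fold range that was the largest of any gene with a mean of at least 1 CPM. Even in library 2, where each of these genes was lowest, Cryaa had 13997 counts. Crygs had 4345, 302 and 16339 TPM and Crygb 1062, 347 and 17645 TPM. Several crystallins are also expressed in the retina, and in library 2 the more restricted Gja3 had 0.430 CPM and Foxe3 no count. The part of retinal crystallin expression in library 2 was not tested.

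The make-up of the lens list also differed, a feature noticed after the values were seen. The α-crystallins held 45.2%, 29.5% and 26.8% of the lens TPM in libraries 1, 2 and 3, and the γ-crystallins A to F held 6.10%, 29.8% and 27.5%. Library 1 thus had the lowest γ share, and libraries 2 and 3 were close to each other in both classes although their lens sums differed 54.5-fold. Summed over each class, library 3 exceeded library 1 by 2.74-fold for α-crystallins, 4.08-fold for β-crystallins and 20.8-fold for γ-crystallins A to F. The reads of γ-crystallins D, E and F, which are near-identical, are uncertain, because reads without a unique position were not counted.

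Over the 27 genes, the ratio of library 3 to library 1 had a median of 5.34 and reached 58.1. The largest ratios were those of Bfsp2, a filament protein of lens fibres, with 58.1, Dnase2b, the nuclease that degrades the nuclei of fibre cells, with 55.6, Lgsn, lengsin, with 42.8, and Birc7 with 26.7. In counts, Bfsp2 had 204, 50 and 6577 and Dnase2b had 16, 3 and 494. Among the smallest ratios were those of Crygn, γN-crystallin, with 1.57 and of the connexin Gja3 with 2.01. Crygn had 43.2, 1.41 and 67.7 CPM and Gja3 had 29.2, 0.430 and 58.5 CPM, so that for these genes libraries 1 and 3 lay nearer to each other than to library 2. Foxe3, a transcription factor of the lens epithelium, had 38, 0 and 53 counts.

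**Figure D3:**
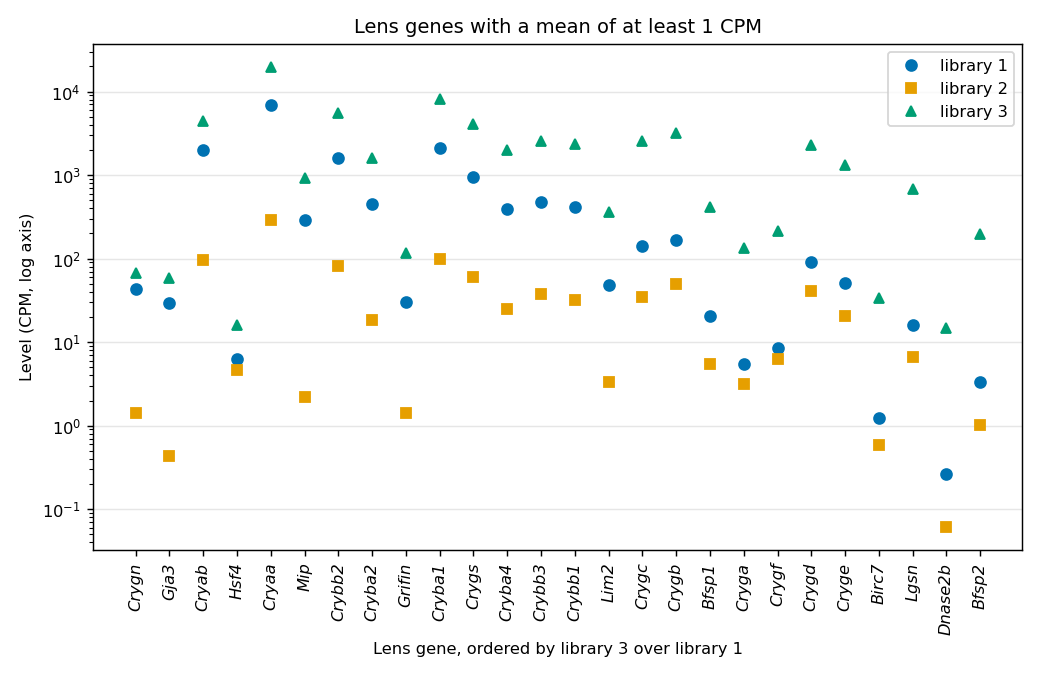
Level in CPM (log axis) of lens genes with a mean of at least 1 CPM, ordered from the smallest to the largest ratio of library 3 to library 1, with 1 symbol per library. Library 1 lies near library 3 at the left, with 1.57-fold for Crygn, and near library 2 at the right, where Bfsp2 is 58.1-fold higher in library 3.

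Several genes outside the lists, chosen after their values were seen, had levels in library 1 near those in library 3, as Gja3 had. The basement membrane genes Col4a1 and Col4a2 had 440.4, 48.5 and 488 CPM and 279.9, 47.1 and 304 CPM, Hspg2, perlecan, had 65.7, 7.02 and 90.9 CPM, and Nid1, nidogen, had 102, 4.71 and 139 CPM. The ligand gene Wnt7b had 19.4, 0.348 and 28.4 CPM, and Pitx3, a homeobox gene of the lens epithelium, had 95, 1 and 60 counts. In others library 1 lay nearer to library 2, as for Bfsp2, such as Hmox1, haem oxygenase, with 5.28, 4.79 and 108 CPM, Fabp5 with 29.1, 7.61 and 244 CPM and Lctl with 8.67, 1.25 and 122 CPM. The part of lens RNA in these differences was not tested. Of the 27 lens genes, 24 were at least 2-fold lower in library 2 than in both others, against 0.965% of all genes (144), and 25 were at least 2-fold higher in library 3, against 0.925% (138).

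Pigment cell genes were low in library 1. The 13 genes summed to 184, 1355 and 889 TPM, or 192, 1359 and 1066 TPM without lens genes in the total. All 13 had their lowest CPM in library 1, against 31.3% of all genes, and 11 differed 2-fold. Pmel, the fibril protein of the melanosome, had 26.2, 261 and 202 CPM, and Gpnmb, a related glycoprotein, had 19.9, 186 and 164 CPM. Dct and Tyrp1, enzymes of melanin synthesis, had 64.4, 396 and 309 CPM and 20.6, 115 and 107 CPM, and Tyr, the enzyme that starts it, had 5.18, 27.8 and 26.9 CPM. Libraries 2 and 3 were thus close to each other, and the median range over the 13 genes was 5.36-fold. Mitf, the transcription factor of pigment cells, varied least, with 10.7, 14.6 and 16.0 CPM, and Rab38, a melanosome traffic gene, had 3.85, 7.18 and 5.01 CPM.

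RPE genes followed another order. The 11 genes summed to 344, 228 and 507 TPM, and of the 10 genes with a mean of at least 1 CPM, 9 were highest in library 3, against 32.9% of all genes, and 7 differed 2-fold, against 5.02%. Rpe65, the isomerase of the visual cycle, had 13.8, 5.67 and 21.4 CPM, Lrat, the acyltransferase before it, 6.98, 5.05 and 14.1 CPM, and Slc16a8, a lactate transporter, 3.54, 2.60 and 10.1 CPM. Ttr, transthyretin, had 60.6, 28.8 and 99.2 CPM and was the highest RPE gene with 203 ± 95 TPM. Library 2, which had the highest pigment sum, thus had the lowest RPE sum. Rgr, a photoisomerase of RPE and Müller glia, had 46.2, 30.4 and 85.7 CPM, whereas Rrh, peropsin, stayed at 29.3, 24.5 and 27.7 CPM and Best1, bestrophin, at 0.872, 0.757 and 0.801 CPM.

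Smooth muscle genes resembled the pigment genes. The 12 genes summed to 132, 457 and 374 TPM, and all 8 with a mean of at least 1 CPM were lowest in library 1, against 31.3% of all genes. Myh11, the smooth muscle myosin heavy chain, had 2.76, 47.4 and 53.1 CPM, Acta2, smooth muscle actin, had 14.0, 78.9 and 95 CPM, and Tagln, transgelin, had 2.83, 25.4 and 20.6 CPM. Libraries 2 and 3 were close for each of these and far above library 1. Mylk and Synpo2, which are expressed more widely, had 123, 176 and 151 CPM and 35.1, 41.7 and 39.9 CPM. Of the stromal genes, Dcn, decorin, with 2.07, 24.0 and 18.9 CPM, and Lum, lumican, with 0.296, 3.87 and 3.23 CPM, were also lowest in library 1, whereas Fbln1 with 82.8, 83.1 and 79.2 CPM and Col1a2 with 26.9, 26.6 and 26.3 CPM were even. Kera, keratocan of the corneal stroma, had 1 count in the 3 libraries together.

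Skeletal muscle genes were highest in library 2. Of the 10 genes with a mean of at least 1 CPM, 9 were highest there, against 28.4% of all genes. Myh4, a fast myosin heavy chain, had 0, 364 and 0 counts, at least 83.7-fold above either other library with 3 counts per library as the floor. Tnnt3, fast troponin T, had 15, 533 and 4 counts, and Ckm, muscle creatine kinase, had 21, 433 and 31 counts. Casq1 was the exception, with 4.36, 3.25 and 8.60 CPM. The highest gene of the list, Pvalb, parvalbumin, with 17.1, 19.1 and 13.4 CPM, is also a gene of amacrine cells and RGCs. Blood genes were highest in library 2 as well, as Hbb-bs, a β-globin, had 33.3, 58.5 and 41.5 CPM and all 5 genes above 1 CPM were highest there, against 28.4% of all genes, and lowest in library 1, against 31.3%.

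Surface epithelium genes were low, with sums of 75, 36.7 and 61.2 TPM. Of the 7 genes with a mean of at least 1 CPM, 3 were highest in library 1, against 38.7% of all genes. Libraries 2 and 3 were each highest for 2 of them. Krt12, the keratin of corneal epithelium, had 295, 38 and 11 counts, and Krt5 had 157, 25 and 7 counts, both highest in library 1. Aldh3a1, a corneal enzyme, had 16.1, 0.839 and 14.0 CPM. Among the Schwann cell genes, Prx, periaxin, which the lens also expresses, had 13.4, 0.593 and 8.75 CPM and Pmp22 had 40.9, 21.1 and 42.2 CPM. Ciliary body and vitreous genes summed to 609, 539 and 461 TPM, or 635, 541 and 552 TPM without lens genes in the total. Only Otx1 differed 2-fold among the 7 genes above 1 CPM, with 2.57, 5.40 and 2.70 CPM. Optc, opticin, had 103, 74.8 and 90.4 CPM.

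**Figure D4:**
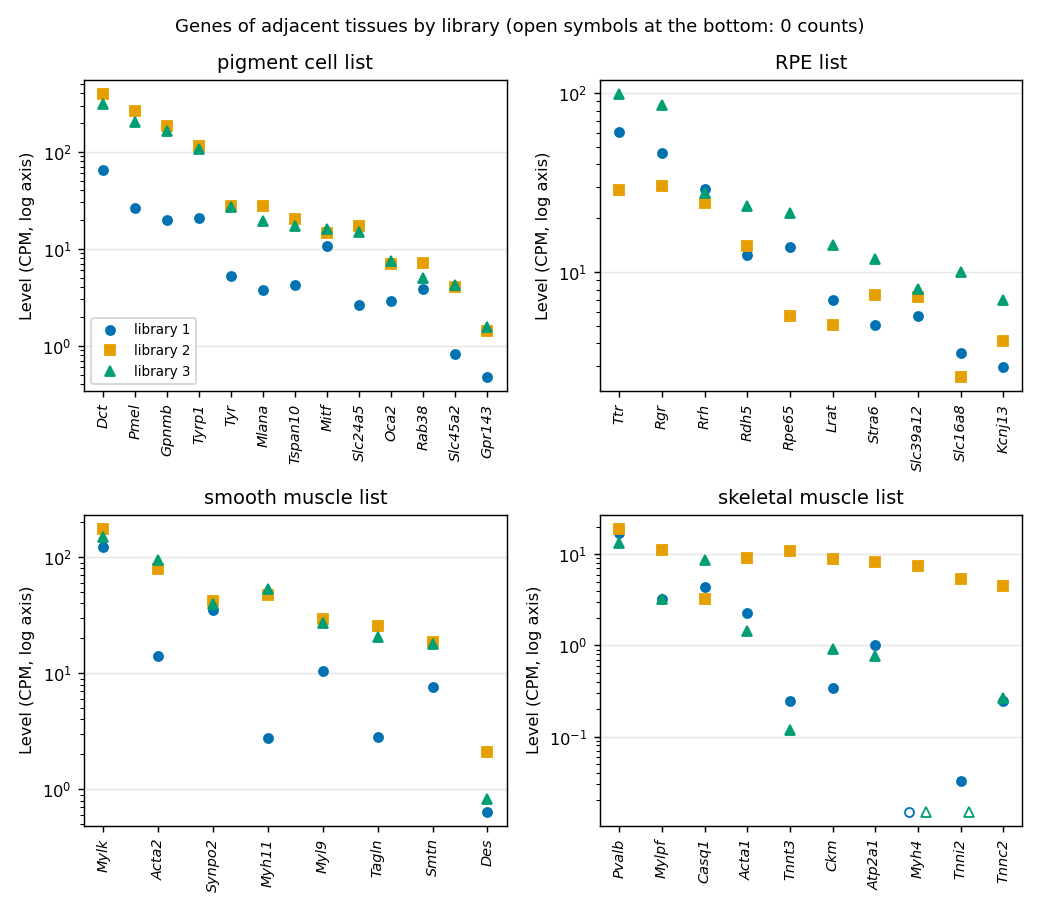
Level in CPM (log axis) of the genes of 4 adjacent tissue lists with a mean of at least 1 CPM, with 1 symbol per library and open symbols for 0 counts. Library 1 is lowest for the pigment and smooth muscle genes, library 3 highest for 9 of 10 RPE genes and library 2 highest for 9 of 10 skeletal muscle genes.

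Among the lists of cell states, clock genes had the smallest median range. It was 1.14-fold, against 1.20-fold over all genes, and none of the 16 differed 2-fold. Nr1d1, a repressor of the clock loop, had 219.6, 219 and 193 CPM, Dbp, an output factor, 139, 126 and 139.8 CPM, Per2 25.3, 26.9 and 26.6 CPM and Arntl, the partner of CLOCK, 119, 112 and 89.7 CPM. The 19 genes of glycolysis summed to 11711, 10892 and 9661 TPM, or 12214, 10925 and 11573 TPM without lens genes in the total, and none differed 2-fold. Aldoa had 3059 ± 279 TPM, Ldha, lactate dehydrogenase, 1107 ± 173 TPM and Pkm, pyruvate kinase, 1056 ± 153 TPM. Eno1, an enolase, had the widest range of them, with 319, 238 and 463 CPM. Gapdh had only 18.6 ± 2.65 TPM and Pgk1 70.6 ± 5.14 TPM, both of which have processed pseudogenes that share their reads.

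Of the immediate early genes, 11 of 15 were highest in library 3, against 32.9% of all genes, and 2 differed 2-fold, against 5.02%. Egr1 had 12.6, 17.6 and 68.4 CPM, a 5.41-fold range, and Fos had 18.9, 19.0 and 32.6 CPM, which did not reach 2-fold. Of the 9 injury response genes, 2 differed 2-fold, against 5.02% of all genes. Serpina3n, a protease inhibitor of reactive glia, had 7.27, 52.7 and 45.8 CPM and was lowest in library 1, like the pigment and smooth muscle genes. Edn2 and Fgf2, which stressed PRs and the retina around them release, had 3.03, 3.13 and 3.88 CPM and 14.2, 15.1 and 24.5 CPM. Both were also lowest in library 1, but with narrower ranges. Stat3 had 62.6, 69.7 and 61.1 CPM. Of the interferon response genes, 8 of 10 were highest in library 3, against 32.9% of all genes, and 9 lowest in library 1, against 31.3%. Usp18 with 0.839, 0.90 and 2.31 CPM, Bst2 with 1.51, 1.92 and 3.62 CPM and Ifit1 with 1.38, 1.96 and 3.26 CPM differed 2-fold.

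Over all 14923 genes, the highest library exceeded the lowest by a median of 1.20-fold, and the median coefficient of variation was 9.51%. A 2-fold range was found in 749 genes (5.02%), of which 16 had fewer than 3 counts in a library, and a 10-fold range in 121. The share of 2-fold genes was 11.9% between 1 and 10 CPM, 2.16% between 10 and 100 CPM and 1.32% between 100 and 1000 CPM. It was 10.6% above 1000 CPM, where it came to 7 of 66 genes, all of them crystallins. The most frequent order among the 749 genes was that of the lens genes, library 3 above library 1 above library 2, with 257 genes (34.3%). By kind of gene, 4.08% of protein-coding genes differed 2-fold, 9.89% of lincRNA genes and 23.4% of processed pseudogenes. Measured in the same way within each of the other triplets of the series, 5.37% to 12.9% of genes had a 2-fold range.

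**Figure D5:**
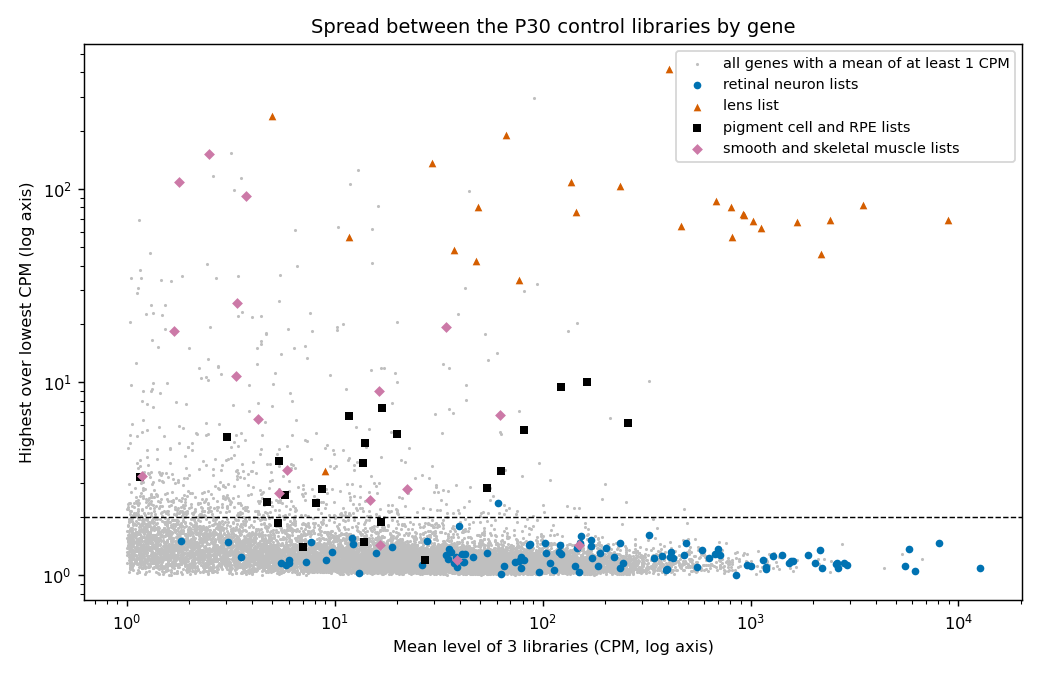
Highest over lowest CPM of the 3 libraries (log axis) against the mean level in CPM (log axis), with 1 point per gene and a dashed line at 2-fold. Of the retinal neuron genes only Pde6c lies above the line, whereas every lens gene shown does.

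Stable genes, with a range of at most 1.1-fold, made up 2519 of the 10426 genes with a mean of at least 10 CPM (24.2%). By list, 6 of 21 genes shared by rods and cones, 3 of 15 rod genes, 2 of 12 cone genes, 5 of 16 amacrine genes and 4 of 15 Müller glia genes were stable. Fewer were so among bipolar genes, with 2 of 18, and none of 3 horizontal, 12 RGC and 25 lens genes were. The smallest range was that of Itfg2 with 73.8, 73.7 and 73.7 CPM, before Ubr7, Dffa, Glyr1 and Aipl1. Aipl1 (chr11:72027963-72037509), the chaperone that PRs need for PDE6, had 850.4, 849.8 and 853 CPM and was the most even gene of all lists. Others within 1.006-fold were Nbl1, 1700030J22Rik, Armc5, Fip1l1 and Bbs4, a gene of the ciliary BBSome. Among abundant genes, Impdh1, an enzyme of GTP synthesis with high levels in PRs, had 734, 750.1 and 747 CPM, and Plekhb2 had 507, 511 and 507 CPM. Of genes often used as references, Actb had 312, 314 and 301 CPM and Tbp 58.2, 58.6 and 54.9 CPM, within 1.1-fold, whereas Hprt had 205, 173 and 184 CPM, outside it. Gapdh had 18.5, 20.3 and 19.1 CPM, just within it. Ppia, with 7.54, 7.98 and 8.36 CPM, was also outside 1.1-fold, but its mean lay below the minimum of 10 CPM.

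Some genes stood apart in 1 library without belonging to a listed tissue. Gm13394, a processed pseudogene, had 9006, 6059 and 17 counts, Rps13-ps1 had 573, 1 and 2 counts, and Gm45349, a lincRNA, had 1, 242 and 190 counts. Near-absence in 1 or 2 libraries thus stood against much higher counts in the rest, and reads of pseudogenes are shared with their parent genes, which makes these values uncertain. In library 1, Gm26917 with 24265, 999 and 671 counts and Gm42418 with 7974, 1170 and 1080 counts, neighbours on chromosome 17, stood above the others, as did Rn7sk, a small nuclear RNA, with 5079, 329 and 300 counts. In library 3, E130119H09Rik had 19, 15 and 1286 counts, Gm5148 had 4, 4 and 257 counts and Agtr1a, an angiotensin receptor gene, had 38, 16 and 1163 counts, together with Gm48161, which overlaps Agtr1a on chromosome 13, with 8, 6 and 139 counts.

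Below the others in library 3 were also Zfp970 with 103, 108 and 1 counts and Gm14325 with 120, 99 and 0 counts, members of a family of similar zinc finger genes on chromosome 2. Abundant genes outside the lists, chosen after their values were seen, had smaller steps. Samd11, a transcriptional regulator in PRs, had 585, 581 and 267 CPM, and Rnf207 had 261, 249 and 88.2 CPM. Rgs9, which ends the signal of transducin in PRs, had 112, 190.1 and 279 CPM. In library 3 Samd11 and Rnf207 were thus lower, and Rgs9 higher, than in either other library, while Gnat1 stayed within 1.09-fold. Bc1, a neuronal noncoding RNA, had 105, 109.6 and 234 CPM.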

How the data were processed

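Poly(A) RNA of mouse retina was sequenced as 50 base single reads. Per the labels and the study's methods, the authors aligned reads to mm10 with STAR 2.5.3a and made the deposited counts per Ensembl 93 gene with HTSeq 0.6.1p1 in union mode (bcl2fastq 2.17.1.14 upstream). The libraries were strand-specific, and the strand option of the counting is not given in the sources used here, so that reads of overlapping antisense genes may not be told apart. Of all reads, 24.8% to 27.2% had no unique position and 10.6% to 12.9% lay in no gene. These were left out of totals, and near-identical genes and pseudogenes are therefore undercounted. The mitochondrial genes held 2.27% to 2.50% of counts, a share that also lacks reads without a unique position.

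The 3 P30 control libraries (60145034, 47255929 and 35242774 counts on genes) were grouped by title and genotype. Nothing states that they came from separate litters. CPM used edgeR 4.0.16 TMM factors, and TPM used the union of exons of GENCODE M21, which named 54079 of 54146 genes. As 1 group of 3 allows no contrast, no test was run. A gene was called variable at a 2-fold range of CPM (mean of at least 1 CPM, values under 3 counts set to 3) and stable at a range of at most 1.1-fold (mean of at least 10 CPM). The script was tested on simulated data. DESeq2 1.42.0 size factors, totals, other thresholds and leaving out each library were alternatives.

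The 29 lists hold 390 genes, of which 389 were found. The lists and their members were chosen with earlier results of these data known. Genes named are the 10 highest by counts and by TPM, up to 4 of highest TPM and 3 of widest range per list with those at 0, the 10 most and 10 least variable, and the 5 farthest above and below in each library, of which a selection is printed. Other list members, such as defining markers, were named for their known roles after their values were seen, and genes outside the lists are marked so where they occur. Some list members are not reported here by name, although sums and counts over lists include them.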

Additional observations from a re-analysis of the deposited data

How the results depend on the processing

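No paired analysis was possible because the libraries formed 1 group. A sum or share was taken as moved where it changed by more than 1 SD of the 3 libraries, and a count where it changed by more than 1.5 times. By this rule 20 of the recomputed summaries moved and 78 did not, and of the other list sums 16 moved and 128 did not. As the SD of uneven lists is large, this is no sign of closeness: the lens sum of 69820.0 TPM was 22126 TPM without library 3 and 103220.0 TPM without library 2, the pigment sum of 809.6 TPM was 537 TPM without library 2, and the skeletal muscle sum of 152 TPM was 91.3 TPM without library 2. A count in each library, in place of 1 CPM, gave 23213 detected genes. Variable genes numbered 307 at a minimum of 5 CPM, 2982 with at least 10 counts in a library and no CPM filter, 2058 at a ratio of 1.5 and 229 at a ratio of 4. Leaving out 1 library gave between 306 (without library 3) and 479 variable genes (without library 2), and 433 without library 1, as fewer libraries narrow a range. It gave between 4482 (without library 2) and 5703 stable genes (without library 1), with 5676 without library 3. At a minimum of 50 CPM, 1394 genes were stable. DESeq2 size factors gave 752 variable genes, 744 of them shared with the 749, and totals alone gave 715, of which 679 were shared.

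Without mitochondrial genes, the 10 genes of highest TPM held 11.3% instead of 14.3%, as 4 of these 10 were mitochondrial, and the rod sum was 68463 instead of 63179 TPM, because the total was smaller. The sums of RGC, microglial, stromal and immediate early genes also rose by more than 1 SD. The longest transcript as length raised the glycolysis sum from 10755 to 14222 TPM and lowered the sums of RGC (2157 to 1908 TPM), pericyte (2032 to 1813 TPM), microglial, stromal, immediate early, interferon and sex-linked genes by more than 1 SD. For the smooth muscle sum, the range was 2.14-fold in CPM against 3.47-fold in TPM, and leaving out a library gave between 1.22-fold (without library 1) and 3.47-fold. For the pigment sum, leaving out a library gave 1.52-fold (without library 1), 4.83-fold (without library 2) and 7.36-fold (without library 3). For the lens sum it gave 4.01-fold (without library 2), 13.6-fold (without library 3) and 54.5-fold (without library 1). Leaving lens genes out of the total was an alternative chosen after seeing the data, and it raised the same 4 sums as leaving out mitochondrial genes by more than 1 SD, to 2334, 224, 279.8 and 548 TPM, because the total was smaller. At 35242774 counts in the shallowest library, 3 counts correspond to 0.0890 CPM, and every range covers 3 libraries only.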
